A study of Homo sapiens with 6 samples.

Results

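This report describes 10 genes of the YAP and TAZ axis in 2 human lung cancer cell lines, out of 12659 genes in the deposited expression table: YAP1, WWTR1, TEAD1, LATS2, AMOTL2, AJUBA, CTGF, CYR61, NT5E and DLC1. They were chosen by symbol, and all 10 were found and passed the filter on low values. NCI-H1650Re is labelled post-SCLC (after transformation to small cell lung cancer) and had 3 libraries. NCI-H1650, labelled pre-LUAD, is an established lung adenocarcinoma line with an EGFR-activating deletion and also had 3 libraries. The labels give no treatment, age or genotype that would set the lines apart, do not say how NCI-H1650Re was derived or whether it is 1 clone, and give NCI_H1650 as the cell line of all 6 libraries. The comparison asks what differs between the states before and after transformation. Whether replicates are separate cultures is not stated in the labels; p-values therefore reflect the spread between these libraries alone, and that spread may be technical.

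YAP1 and TAZ, the product of WWTR1, are transcriptional coactivators with no DNA-binding domain of their own. They bind DNA through TEAD factors and drive genes of adhesion, matrix and growth. The Hippo kinases MST1 and MST2 activate LATS1 and LATS2, which phosphorylate YAP1 and TAZ and keep them out of the nucleus, so their activity is set largely by phosphorylation and location, which transcript levels do not record. In lung cancer, YAP1 is usually present in adenocarcinoma and commonly low or absent in small cell tumours of neuroendocrine type.

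Of the 10 genes, 6 rose in NCI-H1650Re and none fell (limma on log2(FPKM + 1), Benjamini-Hochberg adjusted p under 0.05). Over all 11764 genes tested, 30.5% passed, of which the risers were 16.6% of all genes and the fallers 13.9%. The 6 were AJUBA, NT5E, DLC1, TEAD1, LATS2 and CTGF. At an unadjusted p under 0.05, 8 of the 10 were higher in NCI-H1650Re and 0 were lower. The share of all tested genes at that looser threshold is not given here, and 16.6% and 13.9% do not stand for it. The libraries of the lines did not overlap for 8 of the 10, 7 of them higher and 1 lower in NCI-H1650Re, against 47.2% of all tested genes in either direction, 26.3% higher and 21% lower. The median log2 change was 0.68 for the 10 genes and 0.03 for all genes tested. The genes were chosen with earlier results on these libraries known, so this count is a description. A log2 change is the NCI-H1650Re mean less the NCI-H1650 mean of log2(FPKM + 1), a scale that understates the changes of low genes. Levels are FPKM (fragments per kilobase and M mapped fragments), given as mean ± SD with n = 3 per line.

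**Figure D1:**
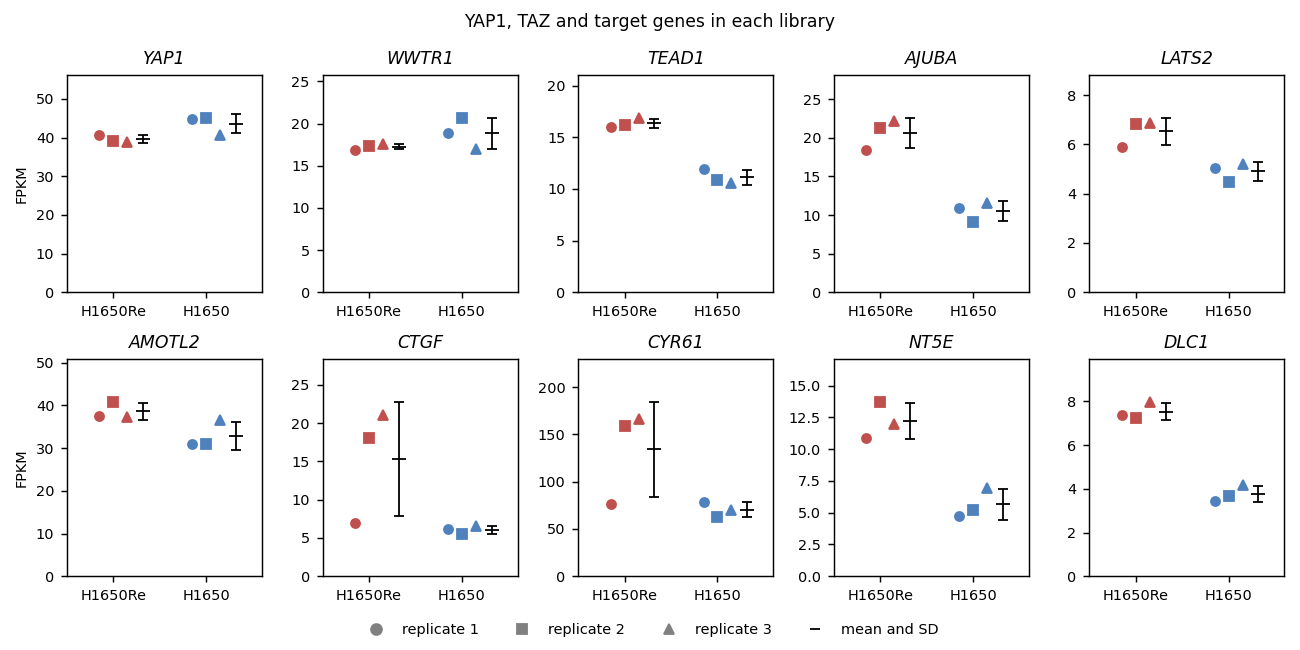
FPKM of each gene (vertical axes, linear, from 0) in the 3 NCI-H1650Re libraries (red, left) and the 3 NCI-H1650 libraries (blue, right); symbols mark replicate numbers and black bars the mean with SD. CTGF and CYR61 in NCI-H1650Re replicate 1 sit at 6.90 and 76.8 FPKM, near the NCI-H1650 libraries, while AJUBA, NT5E, DLC1 and TEAD1 are raised in all 3 NCI-H1650Re libraries.

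As a check of the labels, 4 of 9 small cell and neuroendocrine markers were analysed here, and their summed level ran from 9.42 to 13.95 FPKM in NCI-H1650Re and from 9.78 to 11.96 in NCI-H1650. CHGA rose and ENO2 fell. Of 9 lung epithelial markers 6 were tested, of which 4 fell and none rose (limma), against 13.9% and 16.6% of all tested genes. At an unadjusted p under 0.05, 1 was higher and 4 were lower. Summed levels of these markers were 3017 to 3041 FPKM in NCI-H1650Re and 3456 to 4575 in NCI-H1650. Of 8 stromal markers 3 were analysed, summing to 34.5 to 51.2 FPKM in NCI-H1650Re and 20.6 to 23.8 in NCI-H1650. Their part in the results was not tested. None of 7 leukocyte and endothelial markers was analysed here. In bulk RNA, more cells that express a gene and more RNA per cell cannot be told apart. Estimated depth was 18.1 to 21.6 M fragments in NCI-H1650Re and 17 to 22.3 M in NCI-H1650. Both replicate 3 libraries stood apart in an earlier analysis of these data, and results that turn on a single library are given with and without it.

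The coactivators themselves were present in both lines at close levels. YAP1 was at 40.7, 39.1 and 38.9 FPKM in NCI-H1650Re (replicates 1, 2 and 3, as in all such lists here), and NCI-H1650 had 44.9, 45.1 and 40.8 FPKM. Every NCI-H1650Re library lay below every NCI-H1650 library, though the highest NCI-H1650Re library all but met the lowest NCI-H1650 library. The log2 change was -0.13 (SE 0.067, 95% interval -0.29 to 0.02, limma adjusted p = 0.164), so YAP1 did not pass. WWTR1 was at 16.9, 17.4 and 17.6 FPKM in NCI-H1650Re and at 18.9, 20.7 and 17.02 in NCI-H1650. These ranges overlap, and the log2 change was -0.11 (95% interval -0.30 to 0.07, limma adjusted p = 0.316). Neither gene passed under any of 15 other settings, in which the adjusted p was 0.0834 to 0.407 for YAP1 and 0.0811 to 0.728 for WWTR1. The ratio of YAP1 to WWTR1 transcripts, both per length, was 2.29 ± 0.102 in NCI-H1650Re and 2.32 ± 0.121 in NCI-H1650. By the root mean square difference of centred log2 values over the 6 libraries, the 3 genes most like YAP1 among 11036 named genes were SLC35E3 (0.0118), ATP5MC3 (0.0145) and FECH (0.0181). None of these 3 passed the threshold, with limma adjusted p from 0.204 to 0.350.

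**Figure D2:**
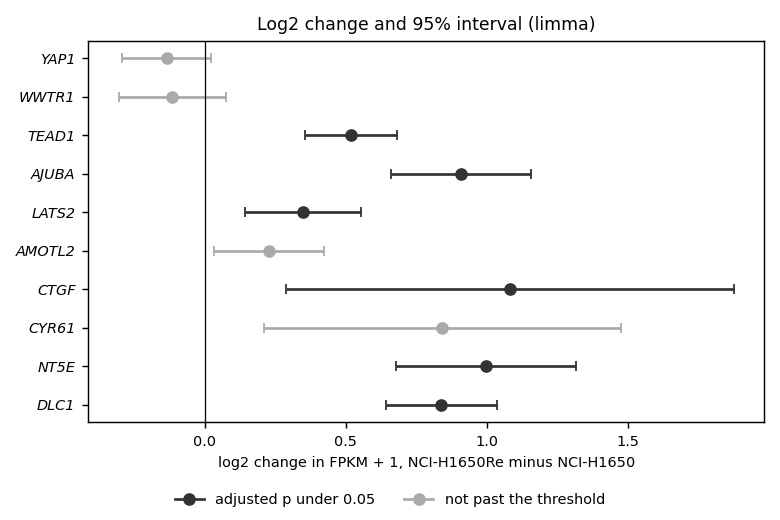
Log2 change in FPKM + 1, NCI-H1650Re minus NCI-H1650, with its 95% interval from limma (3 libraries per line); black points passed an adjusted p of 0.05 and grey points did not. YAP1 and WWTR1 lie just below 0, and the intervals of CTGF and CYR61 are the widest of the 10.

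Of the 4 TEAD factors, TEAD1 and TEAD4 rose. TEAD1, a DNA-binding partner of YAP1 and TAZ, was at 16.0, 16.2 and 16.9 FPKM in NCI-H1650Re and at 11.9, 10.9 and 10.6 in NCI-H1650. All NCI-H1650Re libraries lay above all NCI-H1650 libraries, and TEAD1 rose by a log2 change of 0.52 (SE 0.070, limma adjusted p = 0.00215). TEAD4, a second partner, rose to 22.3 ± 1.01 FPKM in NCI-H1650Re, against 12.6 ± 0.567 in NCI-H1650 (log2 change 0.77, limma adjusted p = 0.000486). TEAD3 was at 14.4, 16.7 and 27.8 FPKM in NCI-H1650Re and at 24.8, 27.8 and 27.3 in NCI-H1650. Replicate 3 of NCI-H1650Re matched the NCI-H1650 level, and the other 2 libraries of that line were well below it. Over all libraries TEAD3 did not pass (log2 change -0.47, limma adjusted p = 0.122), and without NCI-H1650Re replicate 3 it fell by 0.74 on the log2 scale (adjusted p = 0.00111), as it did by 0.72 without both replicate 3 libraries (0.00112). TEAD2 was at 16.2 ± 0.998 FPKM in NCI-H1650Re and 14.8 ± 2.75 in NCI-H1650 and did not pass. As a share of the 4 TEAD transcripts per length, TEAD4 made up 25.5% to 33.5% in NCI-H1650Re and 17.97% to 21.1% in NCI-H1650. TEAD1 made up 20.3% to 23.4% in NCI-H1650Re and 16.0% to 18.4% in NCI-H1650, while TEAD3 made up 21.1% to 33.6% in NCI-H1650Re and 38.3% to 43.5% in NCI-H1650. The 4 together summed to 68.6, 72.0 and 82.8 FPKM in NCI-H1650Re and 64.7, 67.9 and 62.9 in NCI-H1650.

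**Figure D3:**
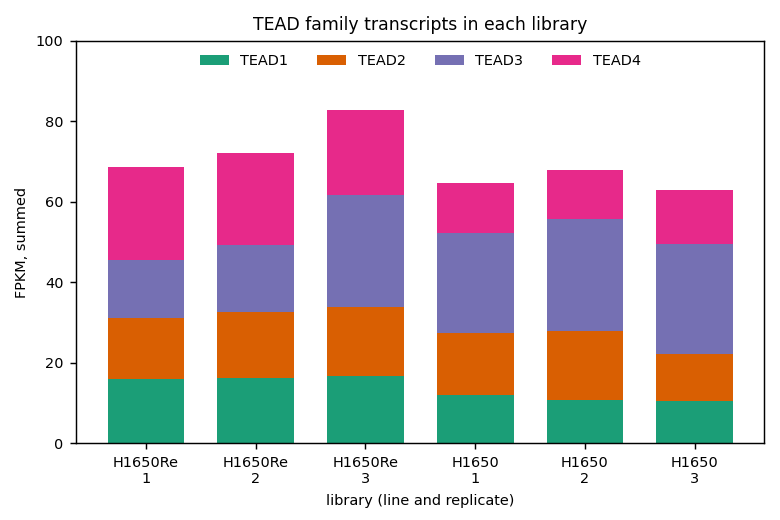
FPKM of TEAD1, TEAD2, TEAD3 and TEAD4 stacked for each library, the 3 NCI-H1650Re libraries left and the 3 NCI-H1650 libraries right. The TEAD1 and TEAD4 segments are larger in every NCI-H1650Re library, and the TEAD3 segment is smaller in NCI-H1650Re replicates 1 and 2 but not in replicate 3.

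At an unadjusted p under 0.05, 2 of 11 other tested genes of the YAP/TAZ and TEAD complex list were higher and 1 was lower. At the adjusted threshold TEAD4 was the only one to rise and none fell (limma), against 16.6% and 13.9% of all tested genes. With both replicate 3 libraries left out, the counts were 3 up and 2 down. With NCI-H1650Re replicate 3 alone left out they were 2 up and 2 down, and with NCI-H1650 replicate 3 alone left out 2 up and 0 down. Among the Vestigial-like proteins, which bind TEADs in competition with YAP1, VGLL4 was at 9.94 ± 0.604 FPKM in NCI-H1650Re and 11.7 ± 0.453 in NCI-H1650. It narrowly missed the threshold (log2 change -0.22, limma adjusted p = 0.0536), and passed with median-of-ratios scaling (0.0335) and quantile normalization (0.0304), with the filter raised to 5 FPKM (0.0472) and without NCI-H1650Re replicate 1 (0.0436). VGLL1 was at 24.0, 29.2 and 51.8 FPKM in NCI-H1650Re and at 24.4, 20.4 and 38.6 in NCI-H1650, with replicate 3 the highest in both lines. VGLL3 was at 4.97 ± 2.24 FPKM in NCI-H1650Re and 5.32 ± 0.167 in NCI-H1650. Neither VGLL1 nor VGLL3 passed.

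Among the 10 genes, AJUBA, LATS2 and AMOTL2 act on YAP1 and TAZ as regulators; AJUBA and LATS2 rose and AMOTL2 did not pass. AJUBA, a LIM-domain protein that binds and restrains LATS kinases at junctions, was at 18.4, 21.2 and 22.2 FPKM in NCI-H1650Re and at 10.9, 9.08 and 11.6 in NCI-H1650. The lowest NCI-H1650Re library was well above the highest NCI-H1650 library, and AJUBA rose 1.96-fold (log2 change 0.91, SE 0.107, limma adjusted p = 0.00124). LATS2, a kinase that inactivates YAP1 and TAZ and is a feedback target of theirs, was at 5.90, 6.82 and 6.86 FPKM in NCI-H1650Re and at 5.05, 4.46 and 5.20 in NCI-H1650. The lines did not overlap and LATS2 rose by a log2 change of 0.35 (SE 0.088, limma adjusted p = 0.0216). That call ended without NCI-H1650Re replicate 2 (adjusted p = 0.0896), NCI-H1650 replicate 1 (0.0540) or NCI-H1650 replicate 2 (0.0946). AMOTL2, an angiomotin-family scaffold that binds YAP1 and is also its target, was at 37.6, 40.8 and 37.4 FPKM in NCI-H1650Re and at 31.1, 31.0 and 36.6 in NCI-H1650. All 3 NCI-H1650Re libraries were the higher ones, with NCI-H1650 replicate 3 close below them, and AMOTL2 did not pass (log2 change 0.23, 95% interval 0.03 to 0.42, limma adjusted p = 0.0776). It passed without NCI-H1650 replicate 3 (log2 change 0.30, adjusted p = 0.0252) and without both replicate 3 libraries (0.33, adjusted p = 0.0106).

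RefSeq promoter windows, from 250 bases before a gene's start to 50 after it (GRCh38.p14), were found for 7 of the 10 genes, some with more than 1 start, giving 10 windows. They were searched on both strands for GGAATG, the core that TEAD factors bind, whose reverse complement is CATTCC, and for the AP-1 motif TGANTCA. The TEAD core was in 5 of the 10 windows, of YAP1, CTGF, AJUBA, AMOTL2 and LATS2, against 14.0% of 35116 windows of all genes. No window held the AP-1 motif, against 7.71% of all windows. A match of letters is a description and not a bound site. The CTGF window (under its newer symbol CCN2) held 3 cores, and 45 of all 35116 windows, 0.128%, held 3 or more. Their first bases lie 169, 104 and 95 bases before the start. Sequences are shown for genes that rose and whose window held the core. The bases upstream of the CTGF start, chr6:131951373-131951622 on the minus strand, and of the second AJUBA start, chr14:22976843-22977092 on the minus strand, are given 5′ to 3′ with each core in capitals; the AJUBA core begins 59 bases before the start. For LATS2, whose core begins 9 bases after its start, only the 30 bases around it are shown, chr13:21061560-21061589 on the minus strand.
CTGF: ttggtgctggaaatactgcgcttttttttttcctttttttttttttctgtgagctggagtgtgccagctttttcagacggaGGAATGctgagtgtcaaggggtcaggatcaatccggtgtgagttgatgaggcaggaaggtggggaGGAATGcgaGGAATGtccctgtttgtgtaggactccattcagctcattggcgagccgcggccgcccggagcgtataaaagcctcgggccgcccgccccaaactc
AJUBA: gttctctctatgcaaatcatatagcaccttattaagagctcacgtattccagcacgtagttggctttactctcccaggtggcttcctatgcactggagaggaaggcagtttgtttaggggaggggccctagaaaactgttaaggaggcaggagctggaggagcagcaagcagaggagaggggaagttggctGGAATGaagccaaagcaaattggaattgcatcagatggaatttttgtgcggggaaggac
LATS2: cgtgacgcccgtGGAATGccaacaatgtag

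The secreted CCN proteins are the most widely used readouts of YAP1 and TAZ, and here they split the NCI-H1650Re libraries. CTGF, a matricellular protein whose promoter carries the 3 cores shown above, was at 6.90, 18.03 and 21.0 FPKM in NCI-H1650Re, whereas the NCI-H1650 libraries had 6.14, 5.48 and 6.53. CYR61, its close relative, was at 76.8, 159 and 167 FPKM in NCI-H1650Re and at 78.4, 63.0 and 70.3 in NCI-H1650. For both genes NCI-H1650Re replicates 2 and 3 stood far above all NCI-H1650 libraries, and replicate 1 lay at or next to the NCI-H1650 range. Replicate 1 was at 1.14 times the NCI-H1650 mean for CTGF and 1.09 times for CYR61. Replicates 2 and 3 held 2.61 and 3.05 times as much CTGF as replicate 1, and 2.08 and 2.17 times as much CYR61.

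CTGF rose, with a mean of 15.3 ± 7.44 FPKM in NCI-H1650Re and 6.05 ± 0.531 in NCI-H1650 (log2 change 1.08, SE 0.342, limma adjusted p = 0.0467). CYR61, at 134 ± 49.9 FPKM in NCI-H1650Re and 70.6 ± 7.72 in NCI-H1650, missed the threshold (log2 change 0.84, SE 0.273, limma adjusted p = 0.0508). The 2 genes fell on either side of 0.05 with nearly the same p, and a difference between them was not tested. Without NCI-H1650Re replicate 1 both passed, CTGF with a log2 change of 1.54 (adjusted p = 0.000484) and CYR61 with 1.20 (0.000681). CTGF no longer passed without any 1 of the other 5 libraries, with adjusted p from 0.0794 without NCI-H1650Re replicate 3 to 0.153 without NCI-H1650Re replicate 2, and between them 0.0887, 0.111 and 0.1345 without NCI-H1650 replicates 3, 1 and 2. Its adjusted p was 0.0789 with both replicate 3 libraries left out, 0.0552 after median-of-ratios scaling, 0.0506 after quantile normalization, 0.0521 with no trend and 0.05003 with no filter. With the filter raised to 5 FPKM, CYR61 passed (limma adjusted p = 0.0460). The CTGF counts deposited by the authors were 383, 1062 and 1038 in NCI-H1650Re and 374, 290 and 303 in NCI-H1650. On these counts the log2 change of CTGF was 1.34 in edgeR and 1.34 in DESeq2. Counts were deposited only for genes the authors had marked as changed in these same libraries, so passing a test on them adds no support and no p is given.

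Such a split within NCI-H1650Re was uncommon. Both replicate 2 and replicate 3 were at least 2 times replicate 1 for 63 of 11764 tested genes, 0.536%, and at most 0.5 times for 12 genes, 0.102%. CTGF and CYR61 were the only 2 of the 10 genes in the first set. By the same root mean square measure over the 6 libraries, CYR61 lay nearer to CTGF (0.175) than any of 11036 other named genes did. The nearest of those were the neutral amino acid transporter SLC1A4 (0.203), the secreted glycoprotein STC2 (0.212) and the metallothionein MT1F (0.236). SLC1A4 was at 12.3, 19.7 and 26.0 FPKM in NCI-H1650Re and at 7.03, 7.0 and 8.80 in NCI-H1650, so its replicate 1 was already above the NCI-H1650 libraries. CYR61 was the more abundant of the pair everywhere, at 7.93 to 11.1 times CTGF per length in NCI-H1650Re and 10.8 to 12.8 times in NCI-H1650. A further family member, CCN5, listed as WISP2, fell to 6.29 ± 1.71 FPKM in NCI-H1650Re, against 10.6 ± 1.66 in NCI-H1650 (log2 change -0.68, limma adjusted p = 0.0217). The CCN5 call ended without NCI-H1650Re replicate 2 (adjusted p = 0.0806), NCI-H1650 replicate 1 (0.0556) or NCI-H1650 replicate 2 (0.0839).

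**Figure D4:**
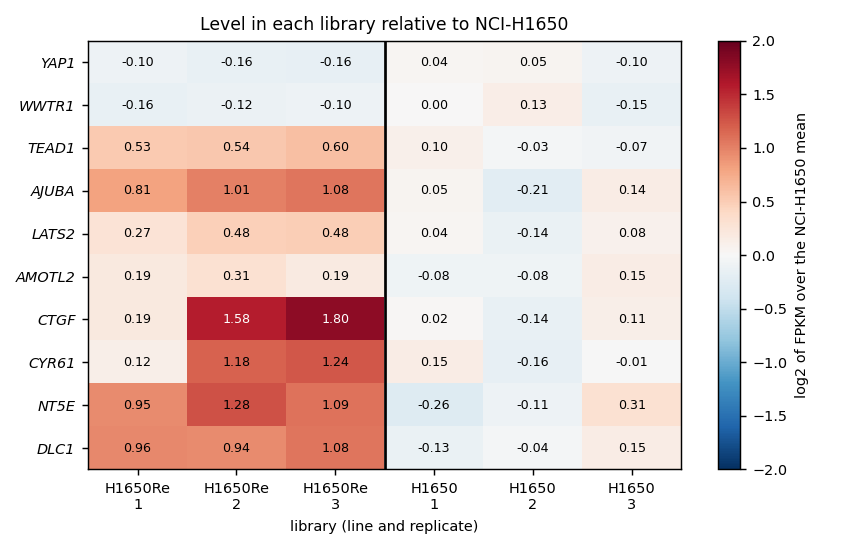
Log2 of each gene's FPKM over its NCI-H1650 mean (colour and printed value), with the 3 NCI-H1650Re libraries left of the line and the 3 NCI-H1650 libraries right of it. NCI-H1650Re replicate 1 reads 0.19 for CTGF and 0.12 for CYR61, against 1.58 and 1.18 in replicate 2, whereas AJUBA, NT5E and DLC1 read 0.81 or more in all 3 NCI-H1650Re libraries.

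The remaining targets rose evenly across the NCI-H1650Re libraries. NT5E, the ectoenzyme CD73 that turns AMP into adenosine outside the cell, was at 10.9, 13.7 and 11.98 FPKM in NCI-H1650Re and at 4.71, 5.25 and 6.98 in NCI-H1650. It was raised in replicate 1 as in the others, and rose 2.16-fold (log2 change 0.998, SE 0.137, limma adjusted p = 0.00222). Its deposited counts were 866, 1158 and 849 in NCI-H1650Re and 412, 398 and 465 in NCI-H1650, with a log2 change of 1.11 in edgeR and 1.11 in DESeq2 and the same limit as for CTGF. DLC1, a tumour suppressor found at focal adhesions, was at 7.37, 7.25 and 7.97 FPKM in NCI-H1650Re and at 3.46, 3.68 and 4.19 in NCI-H1650. The lines were well apart and DLC1 rose 1.99-fold (log2 change 0.84, SE 0.085, limma adjusted p = 0.000739), the smallest adjusted p of the 10. AJUBA, NT5E, DLC1 and TEAD1 passed in all 15 alternative settings of the limma fit, LATS2 in 12, CTGF in 5, and AMOTL2 and CYR61 in 2. With 3 libraries per line the smallest two-sided p of an exact permutation test is 0.1, which the 8 genes without overlap reached.

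In the authors' deposited table CTGF and NT5E were marked up, 2 of the 10, against 2.53% of its 12659 genes. Marked genes had an absolute log2 fold change of at least 1.001 and an FDR of at most 0.00972 in that table. AJUBA (log2 fold change 0.94), DLC1 (0.97) and TEAD1 (0.53) had smaller FDRs in the authors' deposited table than CTGF, and fell short of that fold. The authors' deposited table gives CYR61 an FDR of 0.000523, within that limit, and a log2 fold change of 0.90, short of that fold. It gives YAP1 an FDR of 0.290 and WWTR1 0.364.

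Per length, CYR61 had the highest level of the 10 in both lines. In NCI-H1650Re it was followed by YAP1 and AMOTL2, whose libraries overlapped, then AJUBA, WWTR1, TEAD1, CTGF, NT5E, DLC1 and LATS2. CTGF, the widest of them, overlapped AJUBA, WWTR1, TEAD1, NT5E and DLC1 there. In NCI-H1650 the order was CYR61, YAP1, AMOTL2, WWTR1, TEAD1, AJUBA, CTGF, NT5E, LATS2 and DLC1, with TEAD1 and AJUBA overlapping and likewise CTGF, NT5E and LATS2 in neighbouring pairs.

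The kinase core that restrains YAP1 and TAZ moved in both directions by small amounts. Of 20 tested genes besides LATS2, 7 rose and 3 fell, with a median log2 change of 0.06. The shares over all tested genes were 16.6% and 13.9%. Without NCI-H1650 replicate 2, 3 of the 20 rose and 1 fell. In that fit the rises over all genes numbered 899, against 1952 with every library. MAP4K4, a kinase that can activate LATS in parallel to MST1 and MST2, rose most, to 34.6 ± 1.43 FPKM in NCI-H1650Re, against 21.9 ± 1.57 in NCI-H1650 (log2 change 0.64, limma adjusted p = 0.00124). NF2, the upstream scaffold merlin, rose to 24.4 ± 1.30 FPKM, against 18.2 ± 1.20 in NCI-H1650 (log2 change 0.40), and STK24 rose by 0.41. STK3, which encodes MST2, also rose (log2 change 0.34, limma adjusted p = 0.0152), but missed the threshold when replicate 2 of NCI-H1650Re (0.0656) or of NCI-H1650 (0.0736) was left out. MOB1B, a LATS cofactor, rose by 0.35 (adjusted p = 0.0229), a call that ended when any 1 library other than NCI-H1650Re replicate 3 was left out (0.0514 to 0.0941). WWC1, the scaffold KIBRA, fell to 20.0 ± 0.640 FPKM in NCI-H1650Re, against 27.5 ± 0.821 in NCI-H1650 (log2 change -0.44, limma adjusted p = 0.00261). STK4, SAV1, LATS1 and MOB1A did not pass. LATS1, the paralogue of LATS2, was at 6.84 ± 0.393 FPKM in NCI-H1650Re and 6.63 ± 0.388 in NCI-H1650.

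Among 35 tested scaffolds and junction partners besides AJUBA and AMOTL2, 5 rose, 4 fell and 26 did not pass. Over all tested genes 16.6% rose and 13.9% fell. Only 1 rose without NCI-H1650Re replicate 2, NCI-H1650 replicate 1 or NCI-H1650 replicate 2, and 2 rose without NCI-H1650Re replicate 1. Rises over all genes also dropped in these fits, to 927, 1248, 899 and 1540 in that order, against 1952 with all 6 libraries. Without NCI-H1650Re replicate 3, 8 rose, and without both replicate 3 libraries 9 rose and 5 fell. Rises over all genes numbered 2476 and 2792 there. AMOT, the founding angiomotin, fell to 0.14, 0.24 and 0.11 FPKM in NCI-H1650Re, against 1.47, 1.81 and 2.65 in NCI-H1650 (log2 change -1.34, limma adjusted p = 0.00120). The 3 angiomotins thus differed: AMOT was low in both lines and lower in NCI-H1650Re, AMOTL1 was at 26.7 ± 1.23 FPKM in NCI-H1650Re and 27.1 ± 0.687 in NCI-H1650 and did not pass, and AMOTL2 had the highest level. RASSF1, a scaffold of the MST kinases, rose 2.25-fold to 19.4 ± 0.546 FPKM in NCI-H1650Re, against 8.62 ± 0.480 in NCI-H1650 (log2 change 1.08, limma adjusted p = 0.000181). The atypical cadherin FAT3 fell by 1.14 on the log2 scale, and PPP2CA, a catalytic subunit of protein phosphatase 2A, fell by 0.42. PTPN14, a phosphatase that holds YAP1 in the cytoplasm, was at 11.8 ± 0.523 FPKM in NCI-H1650Re and 11.8 ± 1.21 in NCI-H1650 and did not pass.

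**Figure D5:**
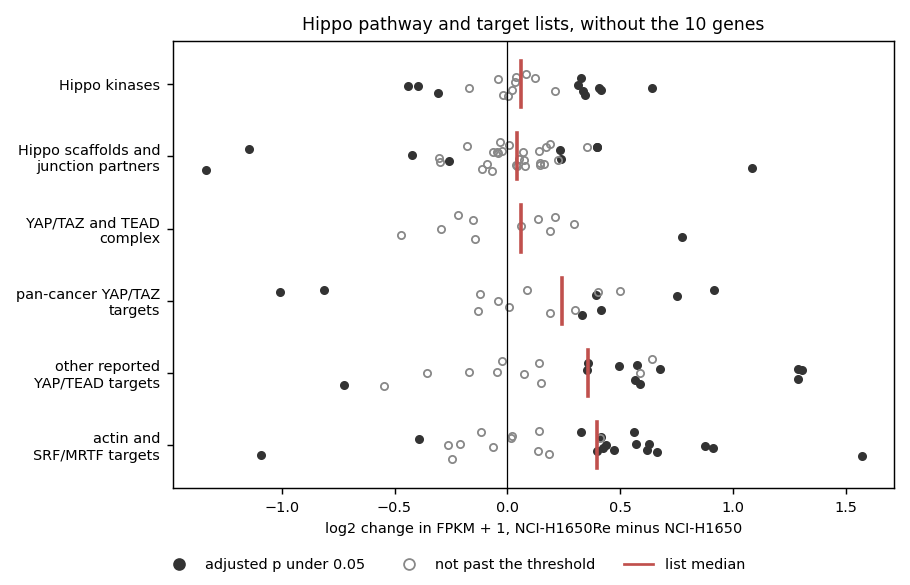
Log2 change in FPKM + 1, NCI-H1650Re minus NCI-H1650, of each tested gene in 6 lists (rows), without the 10 genes described above; filled points passed an adjusted p of 0.05, open points did not, and red lines are list medians. The medians run from 0.04 for scaffolds and junction partners to 0.40 for the list of the actin cytoskeleton and SRF/MRTF targets.

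Other reported targets of YAP1 and TAZ went in both directions. In a published pan-cancer target score, 5 of the 16 tested genes outside the 10 rose and 2 fell, with a median log2 change of 0.24. Over all tested genes 16.6% rose and 13.9% fell. Leaving out NCI-H1650Re replicate 2 gave 2 rises, NCI-H1650 replicate 1 gave 1 and NCI-H1650 replicate 2 gave 0, while leaving out both replicate 3 libraries gave 8. In the same 4 fits the rises over all genes numbered 927, 1248, 899 and 2792, against 1952 with all 6 libraries. Leaving out NCI-H1650Re replicate 1 gave 6 rises in the list and 1540 over all genes. Why these counts moved was not tested. NUAK2, a kinase that acts back on YAP1, rose to 3.55 ± 0.843 FPKM in NCI-H1650Re, against 1.70 ± 0.484 in NCI-H1650 (log2 change 0.75, limma adjusted p = 0.0137). Its log2 change was 0.69 without NCI-H1650 replicate 1 (adjusted p = 0.0525) and 0.67 without NCI-H1650 replicate 2 (0.0591). GADD45A, a stress-induced growth arrest gene, was at 25.5, 38.6 and 44.9 FPKM in NCI-H1650Re and at 14.9, 14.7 and 27.8 in NCI-H1650, overlapped between lines and rose (log2 change 0.91, limma adjusted p = 0.0395). Its call ended in 4 fits without 1 library, where its log2 change was 0.75 to 0.85, with adjusted p of 0.0709 and 0.123 without NCI-H1650Re replicates 3 and 2 and 0.126 and 0.134 without NCI-H1650 replicates 1 and 2. CRIM1, a transmembrane protein that binds growth factors, rose by 0.41, and had a log2 change of 0.38 without NCI-H1650 replicate 2 (limma adjusted p = 0.0509). MYOF, a membrane repair protein, was at 147 ± 13.3 FPKM in NCI-H1650Re and 160.0 ± 4.203 in NCI-H1650 and did not pass. Among the genes of this list outside the 10, the largest change on the log2(FPKM + 1) scale was a fall: IGFBP3, a secreted binding protein of insulin-like growth factors, fell to 235, 283 and 286 FPKM in NCI-H1650Re, against 587, 592 and 449 in NCI-H1650 (log2 change -1.01, limma adjusted p = 0.00166). CCDC80 fell by 0.81. Its log2 change was -0.73 without NCI-H1650 replicate 1 (limma adjusted p = 0.0666) and -0.81 without NCI-H1650 replicate 2 (0.0644), where the call ended. ANKRD1, which like CTGF and CYR61 is a direct target in many cells, was at 0.35, 1.41 and 3.24 FPKM in NCI-H1650Re and at 0.52, 0.13 and 1.84 in NCI-H1650, with its lowest NCI-H1650Re value also in replicate 1, and did not pass (limma adjusted p = 0.430). AXL, a receptor tyrosine kinase, was at 27.4, 36.2 and 40.4 FPKM in NCI-H1650Re and at 24.2, 21.8 and 31.99 in NCI-H1650 and did not pass (log2 change 0.40, limma adjusted p = 0.116). AXL passed when NCI-H1650Re replicate 1 (0.0380), NCI-H1650 replicate 3 (0.0462) or both replicate 3 libraries (0.0277) were left out.

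In a second list of reported targets, 10 of 21 tested genes besides AJUBA and DLC1 rose and 1 fell, with a median log2 change of 0.36. Over all tested genes 16.6% rose and 13.9% fell. Without NCI-H1650Re replicate 2, 6 rose, and without both replicate 3 libraries 12 rose and 4 fell. Rises over all genes numbered 927 and 2792 in these fits, in that order, against 1952 with every library. WNT5A, a non-canonical WNT ligand, rose to 11.1 ± 1.44 FPKM in NCI-H1650Re, against 3.92 ± 0.855 in NCI-H1650 (log2 change 1.31, limma adjusted p = 0.00111). NUAK1, a relative of NUAK2, rose to 4.87 ± 1.17 FPKM, against 1.38 ± 0.217 in NCI-H1650. The crosslinking enzyme TGM2 rose to 368, 306 and 185 FPKM in NCI-H1650Re, against 100.2, 110.9 and 126.7 in NCI-H1650, and unlike CTGF it was highest in replicate 1. CAV1, the caveolar coat protein, fell to 99.1 ± 5.26 FPKM, against 165 ± 15.7 in NCI-H1650 (log2 change -0.72, limma adjusted p = 0.00133).

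Of 27 tested genes in a list of the actin cytoskeleton and SRF/MRTF targets, 14 rose and 2 fell, with a median log2 change of 0.40. The shares over all tested genes were 16.6% and 13.9%. Products of the list build the stress fibres that favour nuclear YAP1, but it also holds regulators, among them SRF and its coactivators. SRF was among the 14 that rose, and the 2 that fell were the coactivator MRTFB and ARHGAP29. Without NCI-H1650 replicate 2, 9 rose and 1 fell, and without both replicate 3 libraries 13 rose and 5 fell. Rises over all genes numbered 899 and 2792 in these fits, in that order, against 1952 with all 6 libraries. Falls numbered 886 and 2288, against 1635. FHL1, a LIM-domain protein, rose to 13.8 ± 1.61 FPKM in NCI-H1650Re, against 3.99 ± 0.590 in NCI-H1650 (log2 change 1.57, limma adjusted p = 0.000253). The myosin light chain MYL9 rose by 0.91 and the focal adhesion protein ZYX by 0.88 on the log2 scale. SRF itself rose to 18.5 ± 2.71 FPKM, against 13.3 ± 1.04 in NCI-H1650 (log2 change 0.44, limma adjusted p = 0.0236), a call that ended when NCI-H1650Re replicate 2 (0.0861), NCI-H1650 replicate 1 (0.0817) or NCI-H1650 replicate 2 (0.0816) was left out. Its coactivators differed: MRTFB, listed as MKL2, fell to 9.57 ± 1.42 FPKM, against 21.4 ± 1.19 in NCI-H1650 (log2 change -1.09), and MRTFA, listed as MKL1, was at 20.7 ± 2.72 in NCI-H1650Re and 22.5 ± 1.18 in NCI-H1650 and did not pass.

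Of 8 tested partners of NT5E in adenosine handling, 1 rose and 2 fell, against 16.6% and 13.9% of all tested genes. The adenosine receptor ADORA2A rose (log2 change 0.34, limma adjusted p = 0.0321), to 25.9 ± 2.90 FPKM in NCI-H1650Re, against 20.3 ± 1.20 in NCI-H1650. Its call ended with median-of-ratios scaling (adjusted p = 0.0507), with quantile normalization (0.0604) and in 4 fits without 1 library, at 0.119 and 0.0551 without NCI-H1650Re replicates 2 and 3 and 0.0817 and 0.126 without NCI-H1650 replicates 1 and 2. The receptor ADORA1 fell by 0.59, and DPP4, which anchors adenosine deaminase at the cell surface, fell to 8.23 ± 3.44 FPKM in NCI-H1650Re, against 21.4 ± 0.968 in NCI-H1650 (log2 change -1.35, limma adjusted p = 0.00558).

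By position, the 10 genes lie on 7 chromosomes (GENCODE, GRCh38). Over the 20 nearest tested genes, 10 on each side (17 in all for LATS2), the median log2 change ran from -0.08 beside LATS2 to 0.12 beside AMOTL2. It was 0.06 beside AJUBA (chromosome 14, 22971174 to 22982642), 0.07 beside NT5E (chromosome 6, 85449584 to 85495791), 0.05 beside DLC1 and 0.07 beside TEAD1 (chromosome 11, 12674591 to 12944483). Beside CTGF (chromosome 6, 131948176 to 131951373) it was -0.04, with 2 neighbours higher and 4 lower. Higher and lower neighbours numbered 0 and 6 beside YAP1, 0 and 6 beside WWTR1, and 1 and 5 beside LATS2. They numbered 5 and 1 beside AJUBA, 4 and 1 beside AMOTL2, and 5 and 2 beside TEAD1. Beside CYR61 they were 3 and 2, beside NT5E 3 and 4, and beside DLC1 4 and 4. Over all tested genes 16.6% rose and 13.9% fell. The annotation places genes on the opposite strand within YAP1, WWTR1, CTGF, DLC1, LATS2 and TEAD1. Whether fragments were counted by strand is not stated in the labels, so reads shared with such partners, if any, cannot be told apart. Annotated genes on the same strand overlap AJUBA (a protein-coding locus), AMOTL2, WWTR1, DLC1, LATS2 and TEAD1, and counting by strand would not separate any shared reads. The overlaps on both strands are of whole gene spans, introns included. Whether exons overlap was not examined.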

How the data were processed

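Polyadenylated RNA was extracted with a miRNeasy kit and made into libraries with a BGI mRNA kit, per the labels. Bowtie2, DESeq2, HISAT2 and RSEM are listed, per the submitters' processing notes, with no version and no order, beside the build mm10, although gene identifiers in the tables are human. A human build was not given in the sources used here. For 12659 genes the authors deposited FPKM values, with no stated filter. Read counts were deposited only for the 860 genes the authors marked as regulated. An FDR (adjusted p-value) and a log2 fold change per gene were also deposited by the authors, per the file headers.

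Genes averaging 1 FPKM or more in NCI-H1650Re or in NCI-H1650 were tested in limma on log2(FPKM + 1), with a variance trend and the line as its only term, and p-values were adjusted by Benjamini-Hochberg over 11764 genes. The deposited counts went into edgeR and DESeq2, using library sizes from the ratio of counts to FPKM (289 genes; level from 17 genes with 1 transcript). Those genes were selected by the authors as changed in these libraries, so only fold changes are given from that fit. The members and gene lists were chosen with earlier results of these data known. Genes named from lists were the 4 largest changes past the threshold and a fixed set of core pathway genes, which are also named where they passed. Symbols missing from the table were matched through RefSeq synonyms. The comparison of NCI-H1650Re with NCI-H1650 was simulated on 11764 genes, with 50 genes changed at each size. Changes were planted only in genes above about 5 FPKM, and the spreads were shuffled among genes. There limma recovered 22 of the 50 genes changed by 0.5 on the log2 scale, 47 at 1, 48 at 2 and 50 at 3. It made 13 false calls. In the data themselves 30.5% of genes passed, so these rates need not carry over. They do not cover genes below about 5 FPKM or a spread that depends on level. Alternatives were pseudocounts of 0.1 and 0.01, other filters and scalings, a replicate block, no trend, and libraries left out. Versions were DESeq2 1.42.0, edgeR 4.0.16 and limma 3.58.1 under R 4.3.3, with Python 3.11.15 for tables and matplotlib 3.10.9 for plots. Some listed genes and 1 list are not reported here.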

Additional observations from a re-analysis of the deposited data

How the results depend on the processing

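Of the 10 genes, 4 to 7 were higher in NCI-H1650Re in fits without 1 library, 6 without both replicate 3 libraries and 5 to 7 in the other alternatives, and 0 were lower in all 15. Over all genes, fits without 1 library gave 899 to 2476 higher and 886 to 2002 lower, against 1952 and 1635 with all 6. The fewest came when NCI-H1650 replicate 2 was left out (899 and 886), followed by NCI-H1650Re replicate 2 (927 and 971) and NCI-H1650 replicate 1 (1248 and 1138). Rises were 54.4% of calls, and 49.2% with median-of-ratios scaling. Whether the replicate numbers pair the libraries was not settled. Deviations of same-numbered libraries from their line means correlated at 0.173, -0.037 and 0.211 for numbers 1, 2 and 3. Those of libraries with different numbers correlated at -0.259 to 0.230. NCI-H1650Re replicate 3 correlated at 0.211 with NCI-H1650 replicate 3, and at -0.149 and -0.177 with NCI-H1650 replicates 1 and 2. With a replicate block 6 of the 10 genes were higher and 0 lower, over all genes 1902 were higher and 1620 lower, AXL passed (limma adjusted p = 0.0453), and 3 scaffolds and junction partners outside the 10 were higher, against 5 without the block. The log2 changes that turned sign were small or variable and not past the threshold, and the cause was not tested. Over fits without 1 library, STK4 ran from -0.0234 to 0.0184, LATS1 from -0.0036 to 0.0787, AMOTL1 from -0.0568 to 0.0063, PTPN14 from -0.073 to 0.0547, TEAD2 from -0.0104 to 0.2409, VGLL1 from -0.0168 to 0.5519 and VGLL3 from -0.4237 to 0.1402. With median-of-ratios scaling STK4 was at -0.0226 and PTPN14 at -0.0177, and with quantile normalization at -0.0396 and -0.0357. Without both replicate 3 libraries, STK4 was at -0.0281, LATS1 at -0.0145, PTPN14 at -0.0386 and TEAD2 at -0.0461. Where only FPKM was deposited, the counts behind a value were not used here.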

Other observations

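The pan-cancer target score genes as summed FPKM, the 10 genes left out, ran from 646 to 711 in NCI-H1650Re and from 832 to 967 in NCI-H1650, while the list's median log2 change was 0.24. IGFBP3 alone accounted for 235 to 286 FPKM in NCI-H1650Re and 449 to 592 in NCI-H1650.

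STC2, second in likeness to CTGF, was at 18.2, 29.5 and 38.7 FPKM in NCI-H1650Re and at 15.7, 13.4 and 14.7 in NCI-H1650. MT1F was at 19.5, 33.3 and 34.2 FPKM in NCI-H1650Re and at 11.95, 11.3 and 10.9 in NCI-H1650. Both were lowest in replicate 1 among the NCI-H1650Re libraries.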
